A study of Homo sapiens with 12 samples.

Results

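Transcript levels of 10 genes that restrain or drive entry into the cell cycle were compared across 4 HEK293T lines carrying different forms of EZH2. The 10 genes were RPRM (Reprimo), the cyclin-dependent kinase (CDK) inhibitors CDKN1B, CDKN1C, CDKN2A, CDKN2B, CDKN2C and CDKN2D, and the D-type cyclins CCND1, CCND2 and CCND3. They were taken by gene symbol from a table of read counts for 14438 symbols, where each of the 10 symbols had 1 row, and all 10 were among the 14263 genes tested. HEK293T is a human embryonic kidney line that carries adenoviral early-region genes and the large T antigen of simian virus 40, whose products bind p53 and the retinoblastoma proteins. Each line was transduced with a lentivirus that delivered EZH2 and was selected with blasticidin. The control line received wild-type EZH2 (EZH2 WT), so it also carried an introduced copy. EZH2 Y641F and EZH2 A677G are gain-of-function (GOF) mutants of the methyltransferase, and EZH2 H689A/F667I is a loss-of-function (LOF) mutant that carries both substitutions. The populations were described as monoclonal, so that a mutation and the line that carried it cannot be told apart, and the cells kept their own EZH2 gene beside the introduced one. Poly(A) RNA-Seq was performed on 3 replicates of each line grown in the same medium, 12 samples in all. The labels number the replicates but do not say which came from separate cultures, so the p-values measure the spread between these samples. The lines are called WT, Y641F, A677G and H689A/F667I below.

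EZH2 is the catalytic subunit of polycomb repressive complex 2 (PRC2), which trimethylates lysine 27 of histone H3, a mark of repressed and often CG-rich promoters. D-type cyclins bind CDK4 and CDK6 and start the phosphorylation of the retinoblastoma protein that opens the way from G1 to S phase. The INK4 inhibitors, encoded by the CDKN2 genes, bind CDK4 and CDK6 directly, whereas p27 and p57, encoded by CDKN1B and CDKN1C, bind complexes of cyclin and CDK. RPRM encodes a small glycoprotein known as a p53-induced inhibitor of the passage through G2. In bulk samples such as these, fewer cells that express a gene and less RNA per cell cannot be told apart.

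Each library held between 32137700 and 44562413 counts, and the normalization factors lay between 0.982 and 1.02. All 8 markers of HEK293 cells had rows, with summed levels of 474 to 597 CPM (counts scaled to library size) per sample and the highest sums in WT. Among them PAX2 was listed at 0 in all 3 A677G replicates and lay between 0.311 and 0.608 CPM in the other samples. The blood cell markers PTPRC, MS4A1, CD79A, CD3E and LYZ had no row. NEFM, another of the HEK293 markers, fell in all 3 mutants by 0.55, 1.02 and 0.35 on the log2 scale. Of 6 fibroblast markers COL1A2 and DCN had no row, and the other 4 summed to 14.0 to 15.5 CPM in WT, 17.1 to 27.6 in Y641F, 15.2 to 17.5 in A677G and 15.2 to 18.9 in H689A/F667I. Among these COL3A1 rose by 1.34 in Y641F (edgeR adjusted p = 2.55e-07) and by 0.93 in A677G (0.000148). COL3A1 averaged 3.52 CPM in WT and 4.87 in H689A/F667I, where it did not pass. LUM rose by 0.90 in Y641F only (0.0218), and averaged 1.33 CPM in WT, 1.35 in A677G and 2.20 in H689A/F667I. COL1A1 and PDGFRA did not pass in any mutant against WT. The part of the fibroblast markers in the results below was not tested. EZH2 reads, which sum the cells' own and the introduced transcript where both are counted, averaged 158 ± 4.32 CPM (SD, n = 3) in WT, 218 ± 9.61 in Y641F, 173 ± 8.57 in A677G and 208 ± 2.03 in H689A/F667I. Against WT the EZH2 level was higher by 0.46, 0.13 and 0.40 on the log2 scale (edgeR adjusted p = 1.57e-10, 0.0294 and 1.15e-07), and the part of this in the results below was not tested.

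RPRM showed the largest difference among the 10 genes, and it did so in both EZH2 GOF mutants. The gene lies on chromosome 2 at chr2:153477338-153478762 on the minus strand (GRCh38, GENCODE), under the identifier ENSG00000177519.4. The 3 WT replicates held 76, 72 and 50 RPRM counts, which corresponded to 2.06, 1.86 and 1.51 CPM. The Y641F replicates held 36, 28 and 22 counts, or 0.856, 0.735 and 0.520 CPM. The A677G replicates held 33, 32 and 34 counts, or 0.740, 0.786 and 0.932 CPM. All 6 GOF samples lay below all 3 WT samples. The H689A/F667I replicates held 58, 74 and 66 counts, or 1.57, 1.88 and 2.05 CPM, which overlapped the WT range and lay above every GOF sample. RPRM fell by 1.36 on the log2 scale in Y641F (SE 0.276, edgeR quasi-likelihood test, Benjamini-Hochberg adjusted p = 0.000865), to 0.389 of the WT level with a 95% interval from 0.264 to 0.573. In A677G it fell by 1.15 (SE 0.271, adjusted p = 0.00400), to 0.451 of the WT level with an interval from 0.308 to 0.661. Of the 14263 genes tested, 68 had a lower log2 fold change than RPRM in Y641F, and 156 in A677G. In the LOF mutant the difference from WT was 0.01 with an interval from -0.50 to 0.52, so that smaller changes in either direction were not detectable at this depth. The EZH2 GOF mutants did not pass the test against each other for RPRM, with a difference of -0.21 and an interval from -0.82 to 0.39. Each of these RPRM decreases passed the threshold under every one of 14 other settings and without any 1 of the 12 libraries.

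**Figure D1:**
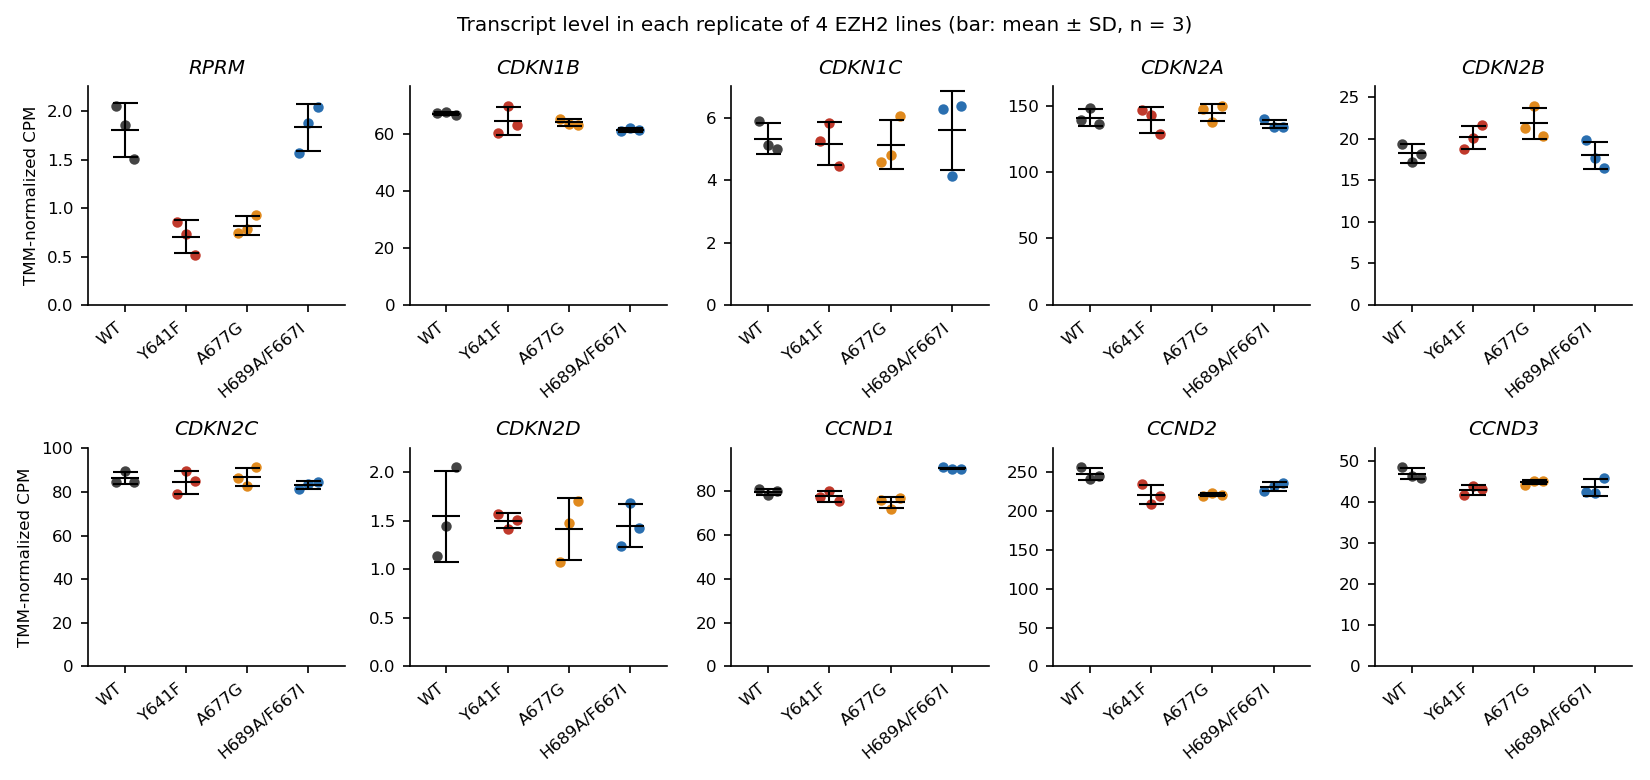
TMM-normalized CPM of each gene (vertical axes, each from 0) in the 4 EZH2 lines (horizontal axes), with 1 point per replicate and bars for the mean ± SD of 3 replicates. RPRM lies between 0.520 and 0.932 CPM in the 6 GOF samples and between 1.51 and 2.06 CPM in the other lines, while in the other panels the line means lie closer together relative to their height.

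The promoter sequences of RPRM and CDKN2B are shown because these genes passed the test in a GOF mutant in opposite directions and both have an entry in the RefSeq promoter table (GRCh38.p14). The 250 bases before the transcription start are given 5′ to 3′ on the gene's strand, with each CG dinucleotide in capitals. The RPRM window is chr2:153478763-153479012 and the CDKN2B window is chr9:22009306-22009555, both on the minus strand.
RPRM: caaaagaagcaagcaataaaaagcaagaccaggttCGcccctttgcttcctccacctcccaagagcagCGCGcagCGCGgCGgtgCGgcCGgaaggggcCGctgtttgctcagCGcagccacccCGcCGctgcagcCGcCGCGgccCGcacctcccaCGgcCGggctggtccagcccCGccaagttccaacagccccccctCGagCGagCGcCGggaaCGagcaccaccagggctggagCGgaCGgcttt
CDKN2B: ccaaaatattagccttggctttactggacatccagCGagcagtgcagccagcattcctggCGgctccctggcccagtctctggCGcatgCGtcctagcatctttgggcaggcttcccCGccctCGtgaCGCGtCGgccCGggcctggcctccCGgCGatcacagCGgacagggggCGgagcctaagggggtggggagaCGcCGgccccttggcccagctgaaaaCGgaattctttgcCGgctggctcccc
The RPRM window holds 26 CG dinucleotides and is 69.6% G and C, and the CDKN2B window holds 18 at 66.4%. Of the 35116 promoter windows of this length in the table, 19.6% hold at least as many CG dinucleotides as RPRM and 36.8% at least as many as CDKN2B, against a median of 11 over all windows. The motif GGGCGG, searched on both strands, is absent from the RPRM window and occurs 2 times in the CDKN2B window. It is present in 42.6% of all windows and in 8 of the 12 windows of the 7 genes with an entry, which were RPRM, CDKN1B, CDKN2A, CDKN2B, CDKN2C, CDKN2D and CCND3.

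Of the 10 genes, 2 passed the test in Y641F against WT, RPRM and CCND2, and both were lower. The share of all tested genes that passed in that comparison was 7.68%. In A677G 3 of the 10 passed, RPRM and CCND2 as lower and CDKN2B as higher, against 8.55% of all genes. In H689A/F667I 1 of the 10 passed, CCND1 as higher, against 0.301% of all genes. The median log2 fold change of the 10 genes was -0.04, -0.07 and -0.05 in the 3 mutants in that order, against medians of 0.00 over all tested genes in each comparison. Values below 0 were found for 9, 7 and 7 of the 10 genes, against 49.0%, 48.3% and 48.8% of all genes.

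**Figure D2:**
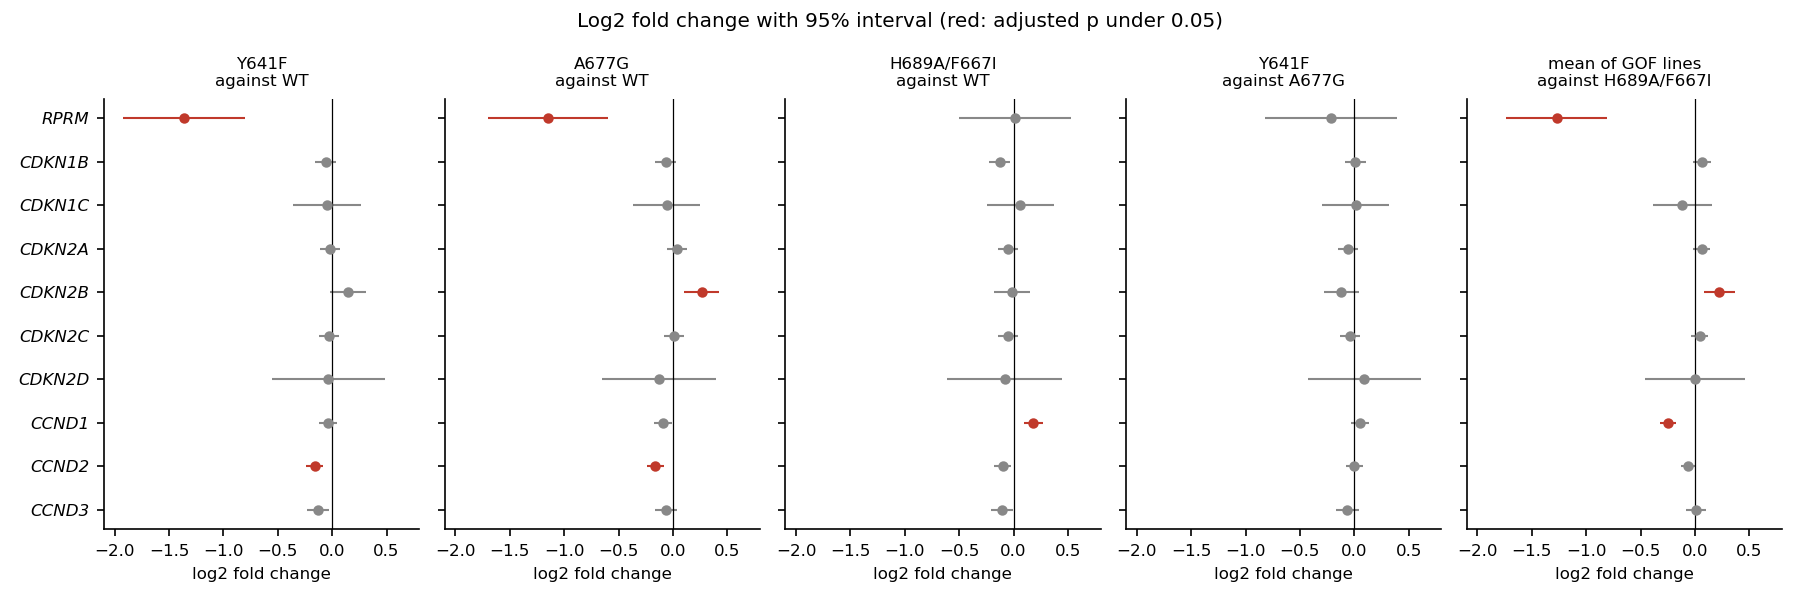
Log2 fold change of each gene (horizontal axes) with its 95% interval in the 5 comparisons (panels), with adjusted p-values under 0.05 in red. RPRM at -1.36 and -1.15 in the GOF mutants stands far left of the other 9 genes, whose values against WT lie between -0.16 and 0.26.

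CDKN2B, which encodes the INK4 inhibitor p15, was the only CDK inhibitor of the 6 to pass the test, and it passed in A677G. It lies at chr9:22002903-22009305 on the minus strand (ENSG00000147883.12). Its levels in WT were 19.4, 17.1 and 18.2 CPM, and those in A677G were 21.3, 23.9 and 20.3 CPM. The lowest A677G sample thus lay above the highest WT sample. Y641F gave 18.8, 20.1 and 21.6 CPM, and H689A/F667I gave 19.8, 17.6 and 16.5 CPM, and both ranges overlapped that of WT. The increase in A677G was 0.26 on the log2 scale (SE 0.0803, edgeR adjusted p = 0.0316, 95% interval from 0.10 to 0.43), while Y641F differed by 0.14 (adjusted p = 0.338). Y641F and A677G did not pass the test against each other, with a difference of -0.12 and an interval from -0.28 to 0.04. The call in A677G was lost without WT replicate 2 (edgeR adjusted p = 0.180) or 3 (0.0792) and without A677G replicate 1 (0.0630) or 2 (0.246). Over all single omissions the log2 fold changes lay between 0.19 and 0.31.

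CDKN2A, the neighbour of CDKN2B at chr9:21967752-21995301 (minus strand, ENSG00000147889.18), encodes p16 and, from another first exon and reading frame, ARF, the inhibitor of MDM2. Its counts sum both kinds of transcript. CDKN2A was the highest of the 10 genes per kilobase, and its level was 141 ± 6.18 CPM (SD, n = 3) in WT, 139 ± 9.70 in Y641F, 145 ± 6.56 in A677G and 136 ± 3.28 in H689A/F667I. The ranges of all 3 mutants overlapped that of WT, and none passed the test. The 95% intervals of the 3 differences from WT reached from -0.14 to 0.13 on the log2 scale. CDKN2A and CDKN2B share 31 of their transcribed 50-base words, or 0.755% and 0.776% of the words of each, so reads there could be assigned to either gene. The antisense gene CDKN2B-AS1 overlaps both genes, and whether the counting used strand was not given in the sources used here. CDKN2B-AS1 itself did not pass the test, with log2 fold changes of -0.06, 0.19 and -0.04 in Y641F, A677G and H689A/F667I.

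The remaining INK4 genes, CDKN2C for p18 and CDKN2D for p19, did not pass the test in any mutant. CDKN2C (chr1:50960745-50974634, plus strand, ENSG00000123080.12) lay between 79.0 and 91.3 CPM over the 12 samples. Its intervals against WT reached from -0.15 to 0.10 on the log2 scale. CDKN2D (chr19:10566460-10569059, minus strand, ENSG00000129355.7) was among the least abundant of the 10 genes, with 42 to 68 counts per library, or 1.08 to 2.05 CPM. Its intervals against WT reached from -0.65 to 0.49, so that only large changes could have been detected for this gene.

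The CIP/KIP inhibitors CDKN1B and CDKN1C did not pass the test in any mutant either. CDKN1B (chr12:12685498-12722369, plus strand, ENSG00000111276.12) gave 67.2, 67.6 and 66.5 CPM in WT and 60.9, 62.1 and 61.4 CPM in H689A/F667I. Those ranges did not overlap, but the difference of -0.13 on the log2 scale had an adjusted p of 0.407 by the edgeR test. Y641F ranged from 60.2 to 69.9 CPM and A677G from 63.1 to 65.4 CPM, with differences of -0.06 and -0.07. GPR19 overlaps CDKN1B on the opposite strand and did not pass the test. CDKN1C (chr11:2883213-2885775, minus strand, ENSG00000129757.15), an imprinted gene, lay between 4.15 and 6.39 CPM over the 12 samples. Its intervals against WT reached from -0.37 to 0.37, and its line means of 5.34, 5.18, 5.15 and 5.61 CPM in WT, Y641F, A677G and H689A/F667I overlapped in their samples.

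Among the D-type cyclins, CCND2 was lower in both EZH2 GOF mutants and CCND1 was higher in the LOF mutant. CCND2 (chr12:4269771-4305353, plus strand, ENSG00000118971.9) gave 256, 242 and 246 CPM in WT. The levels were 235, 210 and 220 CPM in Y641F, 220, 223 and 221 CPM in A677G, and 225, 232 and 237 CPM in H689A/F667I. All 9 mutant samples lay below the lowest WT sample. CCND2 fell by 0.16 on the log2 scale in each GOF mutant (SE 0.0389 in both), to 0.894 and 0.893 of the WT level. The edgeR adjusted p-values were 0.00535 for Y641F and 0.00450 for A677G. In the LOF mutant the difference was -0.10 with an unadjusted p of 0.0153 and an adjusted p of 0.434 by the same edgeR fit. The call in Y641F was lost without WT replicate 1 (adjusted p = 0.0598) or Y641F replicate 2 (0.0525), and that in A677G without WT replicate 1 (0.0506).

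CCND1 (chr11:69641156-69654474, plus strand, ENSG00000110092.4) gave 80.9, 78.1 and 79.8 CPM in WT and 90.7, 90.0 and 90.1 CPM in H689A/F667I. The LOF samples lay above all 9 others, since Y641F ranged from 75.4 to 80.1 CPM and A677G from 71.8 to 76.6 CPM. Against WT, CCND1 rose by 0.18 on the log2 scale in the LOF mutant (SE 0.0422, edgeR adjusted p = 0.0443), a 1.13-fold level. This call was lost when any 1 of the 6 libraries compared, or replicate 1 or 3 of A677G, was left out. The edgeR adjusted p-values then reached up to 0.272, with log2 fold changes between 0.17 and 0.19. In A677G the CCND1 ranges lay below those of WT without overlap, but the difference of -0.09 did not pass the test (edgeR adjusted p = 0.215). ORAOV1 overlaps CCND1 on the opposite strand and did not pass the test.

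CCND3 (chr6:41934934-42050357, minus strand, ENSG00000112576.13) gave 48.4, 46.2 and 45.9 CPM in WT, and its 9 mutant samples lay between 41.6 and 45.90 CPM, each below the lowest WT sample at 45.92 CPM. The differences of -0.13, -0.07 and -0.11 in Y641F, A677G and H689A/F667I did not pass the test, with edgeR adjusted p-values of 0.130, 0.527 and 0.577. Together the intervals reached from -0.23 to 0.04.

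A further comparison set the average of both GOF mutants against the LOF mutant. In that comparison 12.6% of all tested genes and 3 of the 10 genes passed, RPRM and CCND1 as lower and CDKN2B as higher in the GOF mutants. RPRM differed by -1.27 (SE 0.229, edgeR adjusted p = 0.000105), CCND1 by -0.25 (SE 0.0362, adjusted p = 4.3e-06) and CDKN2B by 0.22 (SE 0.0705, adjusted p = 0.0310). The groups did not overlap for RPRM or CCND1, whereas the lowest GOF sample of CDKN2B at 18.8 CPM lay below the highest LOF sample at 19.8 CPM. CCND2 did not pass, with a difference of -0.06 and an interval from -0.13 to 0.01. The RPRM and CCND1 differences passed under all 14 settings and all 12 single omissions, and the CDKN2B difference under 13 settings and 8 omissions. It was lost without Y641F replicate 3, A677G replicate 2, or H689A/F667I replicate 2 or 3, at adjusted p-values of 0.0763, 0.0974, 0.125 and 0.212. Between Y641F and A677G, where 0.0841% of all genes passed, 0 of the 10 genes passed by edgeR's quasi-likelihood test, 0 had an unadjusted p under 0.05, and 0 passed by limma, the exact test or DESeq2, which gave no adjusted p for RPRM, CDKN1C and CDKN2D there. All comparisons with WT share its 3 samples.

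**Figure D3:**
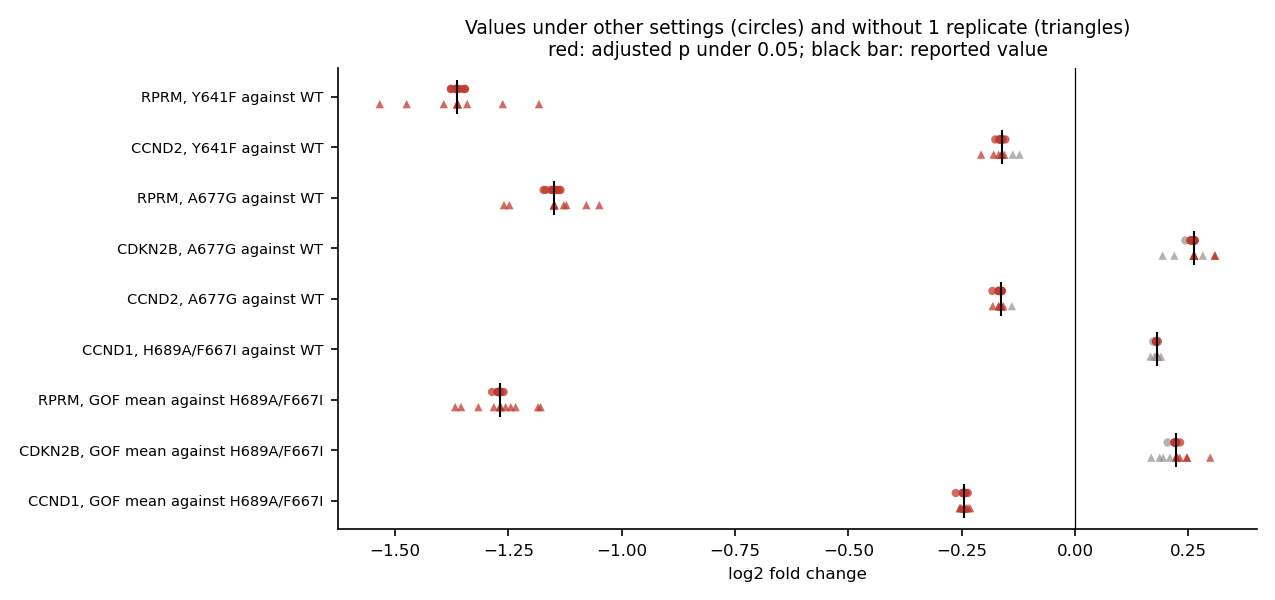
Log2 fold change (horizontal axis) of each gene and comparison that passed the test, under the 14 other settings (circles) and with 1 of the 12 libraries left out (triangles), in red where the adjusted p was under 0.05 and in grey otherwise, with the reported value as a black bar. Every RPRM point is red, between -1.53 and -1.05, while CCND2, CDKN2B and CCND1 in the LOF mutant against WT have grey points, and no point changes sign.

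Levels of different genes were compared per kilobase of exon. In WT the order by the union of exons was CDKN2A at 36.3 CPM per kilobase, CCND2 at 31.0, CDKN2C at 28.6, CCND1 at 16.7, CCND3 at 8.13, CDKN1B at 7.25, CDKN2B at 4.56, CDKN1C at 2.15, RPRM at 1.27 and CDKN2D at 1.03. RPRM and CDKN2D thus stood at the low end, next to each other. In both GOF mutants RPRM was the lowest of the 10, at 0.494 and 0.575 CPM per kilobase in Y641F and A677G. With the longest transcript as the length CDKN2A stood at 134 CPM per kilobase and CCND3 moved above CCND1, at 19.6 against 18.8. Within the summed D-type cyclins per kilobase of exon union, CCND2 made up 55.5% ± 0.279 (SD, n = 3) in WT and 52.2% ± 0.505 in H689A/F667I. CCND1 made up 29.9% ± 0.340 and 34.2% ± 0.702 of the sum in those lines. In the GOF mutants CCND2 lay between these shares, at 53.9% ± 1.97 and 54.2% ± 0.700.

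**Figure D4:**
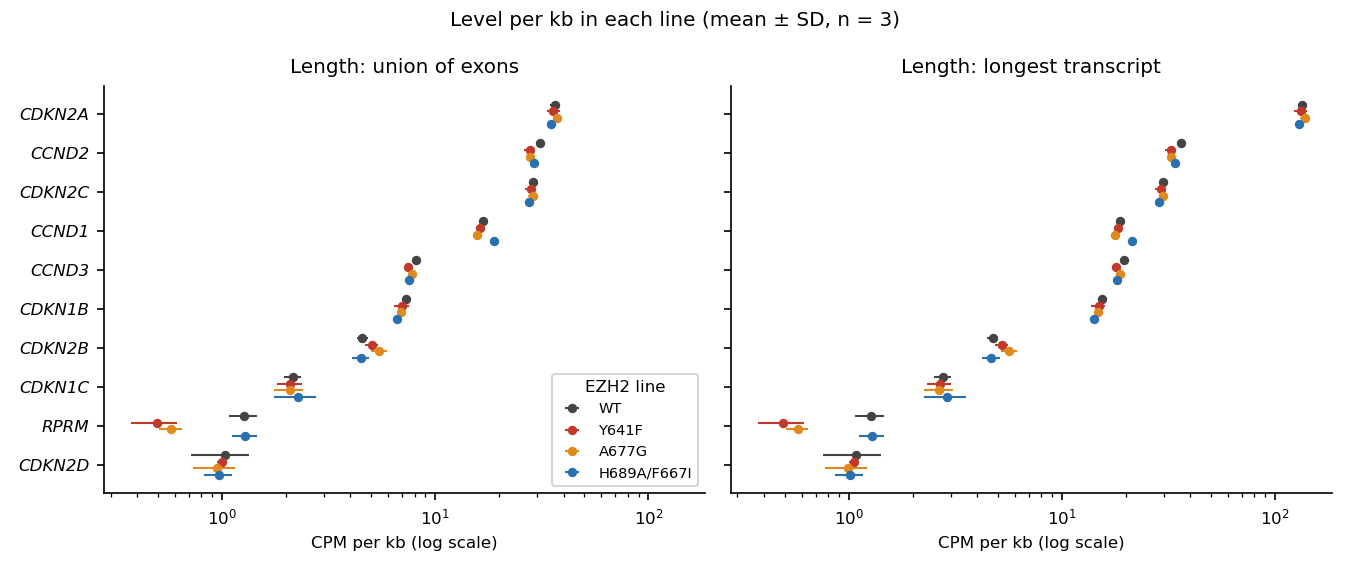
CPM per kilobase (horizontal log axes) of each gene in the 4 EZH2 lines, as mean ± SD of 3 replicates, with length taken as the union of exons (left) or the longest transcript (right). RPRM lies beside CDKN2D near 1 in WT and the LOF mutant and below it, at 0.494 and 0.575, in the GOF mutants.

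Other genes of the cell cycle were followed in lists by function. The shares of all tested genes that passed against WT, 7.68% in Y641F, 8.55% in A677G and 0.301% in H689A/F667I, are the background for the counts in each list. The lists together held 74 tested genes, of which 5.41% passed in Y641F, 6.76% in A677G and 1.35% in H689A/F667I. Of 7 other CDK inhibitors, 1 rose in Y641F, the same 1 in A677G and none passed in the LOF mutant. This was CDKN1A, which encodes the p53 target p21, with 22.0 ± 2.90 CPM (SD, n = 3) in WT, 27.4 ± 3.83 in Y641F, 34.4 ± 2.23 in A677G and 24.7 ± 1.33 in H689A/F667I. CDKN1A rose by 0.31 on the log2 scale in Y641F (edgeR adjusted p = 0.0142) and by 0.64 in A677G (7.06e-07). The median of that list was 0.06, 0.02 and 0.05 in Y641F, A677G and H689A/F667I.

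Of the 10 tested CDKs and cyclins of G1 and S phase, 1 fell in each GOF mutant and none passed in the LOF mutant. CDK6, a kinase partner of the D-type cyclins, averaged 215 ± 8.80 CPM (SD, n = 3) in WT, 189 ± 7.88 in Y641F, 188 ± 2.86 in A677G and 212 ± 10.8 in H689A/F667I. It fell by 0.18 and 0.19 on the log2 scale in Y641F and A677G (edgeR adjusted p = 0.00221 and 0.00121). The list medians were 0.00, 0.04 and 0.01. Like CCND2, CDK6 thus had lower transcript levels in both GOF mutants, by amounts of similar size.

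Of 13 pocket proteins and E2F factors, 1 passed in Y641F and none in the other mutants. TFDP2, a dimerization partner of the E2F factors, rose by 0.14 (edgeR adjusted p = 0.0427), and the list medians were 0.00, 0.00 and -0.01. Of 15 tested genes around CDK1 in G2 and M phase, where RPRM acts, 1 rose in Y641F, 2 rose in A677G and none passed in the LOF mutant. CDC25B, a phosphatase that activates CDK1, rose by 0.26 in Y641F (adjusted p = 0.00146). WEE1, a kinase that restrains CDK1, rose by 0.18 in A677G (adjusted p = 0.00678), and CCNB2, a B-type cyclin, by 0.15 (0.0299). The members of that list that passed in A677G thus include both an inhibitor and a partner of CDK1, and the list medians were 0.03, 0.04 and 0.02. The log2 fold changes in the list ran from -0.82 to 0.26 in Y641F and from -1.10 to 0.18 in A677G. None passed as lower. The low end in both was GADD45G, named after its values were seen, at 0.607 CPM in WT, 0.342 in Y641F and 0.285 in A677G. GADD45G held only 20 to 24 counts per library in WT, 10 to 20 in Y641F and 6 to 16 in A677G. RPRML, a gene related to RPRM that shares none of its 50-base words, did not pass in any mutant, with 3.62, 3.24, 3.27 and 4.10 CPM in WT, Y641F, A677G and H689A/F667I.

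Of 12 replication and proliferation markers, none passed in Y641F and 1 rose in each of the other mutants. PCNA, the sliding clamp of DNA polymerase, rose by 0.14 in A677G (edgeR adjusted p = 0.0298) and by 0.18 in H689A/F667I (0.0443). The list medians were 0.02, 0.01 and 0.00. Of 17 genes that act in the turnover of D-type cyclins and p27, none passed against WT in the edgeR quasi-likelihood fit, while 2, 2 and 1 had an unadjusted p under 0.05 in the 3 mutants in that order. In the GOF mutants against the LOF mutant 8 of the 74 tested genes of these 6 lists passed, or 10.8% against 12.6% of all genes, namely CDKN1A, CABLES1, E2F3, RBL2 and WEE1 as higher and CDK6, CCNH and SKP2 as lower, of which CABLES1, CCNH, E2F3, RBL2 and SKP2 are named after their values were seen. The calls against WT for CDK6, for CDC25B and for CDKN1A in A677G held under all 14 settings and all 12 single omissions. Of the 12 omissions, the other calls held in 8 for CDKN1A in Y641F, 4 for TFDP2, 10 for WEE1, 7 for CCNB2, and 7 and 3 for PCNA in A677G and the LOF mutant. In the GOF mutants against the LOF mutant the calls for CDKN1A, CDK6 and E2F3 held in all 12 omissions, while those for WEE1 held in 9, CABLES1 in 5, RBL2 in 5, SKP2 in 3 and CCNH in 1.

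The genes whose log2 CPM followed that of RPRM most closely over the 12 samples, of 12032 genes searched, were STAC, GUCY1A2 and PPP1R1A, with Pearson's r of 0.98, 0.98 and 0.97. These correlations are descriptions, since the points share 4 lines and r follows the differences between them. STAC fell by 1.59 on the log2 scale in Y641F and by 1.40 in A677G, PPP1R1A by 1.24 and 1.12, and GUCY1A2 by 0.69 and 0.50. The genes closest to CCND2 were DFFA, FLT4 and FN1 (r of 0.96, 0.93 and 0.92), those closest to CCND1 were H2AFY2, RASSF2 and GPX8 (0.95, 0.93 and 0.91), and those closest to CDKN2B were LGR4, PPM1E and KCTD6 (0.90 each). DFFA, FLT4 and FN1 passed the edgeR test as lower in both GOF mutants. None of the genes closest to CCND1 or CDKN2B passed it in any mutant against WT.

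**Figure D5:**
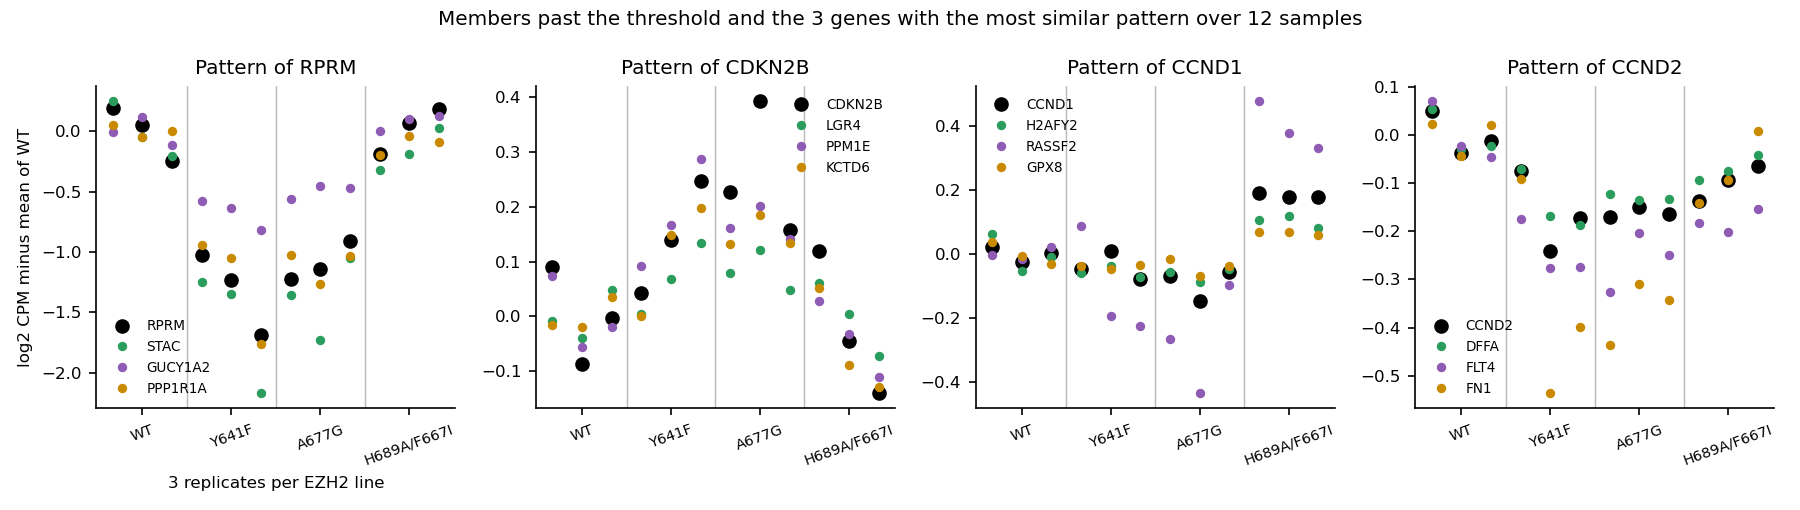
Log2 CPM minus the mean of the WT samples (vertical axes) in the 12 samples, 3 replicates per EZH2 line (horizontal axes, lines divided by grey rules), for RPRM, CDKN2B, CCND1 and CCND2 (black) and the 3 genes most like each (colours). RPRM and its 3 most similar genes lie near 0 in WT and in the LOF mutant and lower in all 6 GOF samples, with STAC reaching about -2.17 in 1 Y641F replicate.

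The genes nearest to RPRM on the chromosome lay far from it. ARL6IP6, 714942 bases away on one side, did not pass the test in any mutant. GALNT13, 393160 bases away on the other side, fell by 0.28 on the log2 scale in A677G (edgeR adjusted p = 0.00447) and did not pass in Y641F (-0.19, adjusted p = 0.0916). DMRTA1, 437519 bases from CDKN2B, fell by 1.16 in Y641F (adjusted p = 0.0318), where CDKN2B did not pass. KCNQ1, 34108 bases from CDKN1C, fell by 1.70 in Y641F (adjusted p = 0.0107), where CDKN1C differed by -0.05. SLC44A2, 33398 bases from CDKN2D, rose by 0.20 and 0.23 in Y641F and A677G (adjusted p = 0.0267 and 0.00938). The nearest tested genes on both sides of CDKN1B, CDKN2A, CDKN2C, CCND1, CCND2 and CCND3 did not pass in any mutant against WT.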

How the data were processed

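RNA-Seq libraries (stranded poly(A) kit) of 4 HEK293T lines, 3 replicates each, were analysed. The authors deposited whole-number read counts per gene symbol. Their processing notes name Trim Galore 0.6.5, STAR 2.7.9a, Salmon 1.2.0 and edgeR 3.16, and the step from alignments to counts per symbol was not given in the sources used here. Counts between 20 and 100 were even in 59.0% to 61.3% of genes per library, against 49.4% to 51.2% above 1000, and RPRM was even in 11 of 12 libraries and CDKN2D in 12 of 12, so whether a count is a read or a pair is unknown.

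From these counts, 175 genes at 0 in every replicate of a line were left out, and 14263 were tested with edgeR 4.0.16 (R 4.3.3; TMM factors, filterByExpr with a minimum count of 10, quasi-likelihood F test over all 12 samples, common biological coefficient of variation 0.0471). P-values were two-sided and Benjamini-Hochberg adjusted over all tested genes, with a threshold of 0.05, and CPM use the TMM factors. The depth of 32137700 to 44562413 counts per library gave standard errors near 0.04 for CCND2 and 0.27 for RPRM. The fit was checked on simulated data. Alternatives covered normalization, filters, DESeq2 1.42.0, limma 3.58.1, the exact test of edgeR, GC content, replicate blocks, the samples fitted and each library left out. The genes described and the lists were chosen with earlier results of these data known. Apart from the 10 genes, list members past the threshold against EZH2 WT (at most 4 per list and comparison), the 3 genes most correlated with each gene that passed (mean log2 CPM of at least 1) and the nearest tested neighbours are named. Gene positions are from GENCODE 44.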

Additional observations from a re-analysis of the deposited data

Results flagged for a closer look

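The effect against WT differed between the GOF and LOF mutants for 3 of the 10 genes, against 12.6% of all tested genes. This was by the test of the difference itself (the average of Y641F and A677G against H689A/F667I, edgeR quasi-likelihood test). The difference was -1.27 on the log2 scale for RPRM, 0.22 for CDKN2B and -0.25 for CCND1. For CDKN2B the GOF and LOF samples overlapped, and the call was lost with upper-quartile factors and in some single omissions. With 3 replicates per line, single samples were not tested as outliers.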

How the results depend on the processing

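Each gene and comparison was recomputed under the alternatives and single omissions, 1297 values in all. Of these 1273 stayed on their side of the threshold, 23 lost a call, 1 gained one and 0 reversed a call. Among the values that did not pass, 55 changed sign, all from reported values of at most 0.126 in size. The genes that passed in Y641F numbered 1 to 2 and those in H689A/F667I 0 to 1 when 1 library was left out. In A677G the number fell as well, through the losses of CDKN2B and CCND2 given above. With library totals in place of TMM factors, 0 of the 10 passed in H689A/F667I (CCND1 0.17, adjusted p = 0.0747). With a replicate block, also 0 passed there (CCND1 0.18, adjusted p = 0.0525), and the block changed no other call among the 10 genes. Same-numbered samples did not deviate together (correlations from -0.056 to 0.050), and 2 of 12 samples correlated best with their own number. With upper-quartile factors CDKN2B lost its calls in A677G (0.24, adjusted p = 0.0527) and in the GOF against the LOF mutants (0.20, 0.0519). Without Y641F replicate 1, CCND2 gained one there (-0.09, 0.0487).

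Over all genes, the 43 calls in H689A/F667I became 76 by the exact test, 86 with only the groups compared and 169 with genes at 0 kept, and 11 to 65 when 1 library was left out. The 12 calls between Y641F and A677G became 19 by DESeq2 and with the GC trend and replicate block, 23 by the exact test, 178 with genes at 0 kept and up to 57 when 1 library was left out. The 1095 calls in Y641F became 703 without WT replicate 2. Of the calls in H689A/F667I 53.5% were lower, 64.5% with library totals and 82.2% with genes at 0 kept, and 35.3% to 61.1% when 1 library was left out (35.3% without WT replicate 2, 36.4% without H689A/F667I replicate 1), so the majority direction turned. Halving all counts, a setting added after seeing the data, changed no call among the 10 genes. By Spearman's rho only 1 of the 3 genes most like RPRM, and 1 of those most like CCND1, was among the first 3. At 22 to 76 counts per library, RPRM and CDKN2D allow only large differences to be detected.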
